A study of Homo sapiens with 9 samples.

Results

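The state of cells at the end of a 15 min heating at 44 °C, with 0 h of recovery at 37 °C, was set against that of unheated control cells. The cells were U937, an established human lymphoma line with traits of immature monocytes. The members of the comparison were 2 of the 9 arrays of the study, chosen by their treatment labels: 1 array from cells heated at 44 °C and sampled at 0 h, and 1 array from control cells cultured at 37 °C with no heating. The other 7 arrays came from cells sampled 1, 3 or 6 h after heating at 44 °C, and 0, 1, 3 or 6 h after 15 min at 42 °C, of which the 42 °C, 0 h array was also set against the 44 °C, 0 h array and the others gave levels alone. Where no time is given, values at 44 °C or 42 °C are those at 0 h. All cells were of the same line and no other agent or genetic change is named in the labels. Each condition had 1 array, so no test was possible, no p-value is given, and every difference describes these arrays, with no measure of the spread between cultures. A gene is said to have risen or fallen where its signal differed at least 2-fold, which is a log2 fold of 1 or more in size. Folds are always the 44 °C, 0 h array over the control array unless another pair is named. Signals are fluorescence values of the probe set, a group of short probes near the 3′ end of a transcript, after each array was brought to a common mean of 100. They compare a gene between arrays and do not rank genes against each other.

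Heat unfolds proteins, and the transcription factor HSF1 then drives genes of chaperones such as HSP70 and its cofactors, which refold or remove them. Severe heat is also known to slow transcription, splicing and translation of most other genes. Many regulators of stress and growth, among them immediate early genes and inhibitors that act as feedback, have messenger RNAs with short lives, so that their amounts follow changes in synthesis or decay within minutes. The arrays measured RNA amounts alone, and synthesis and decay were not tested.

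The deposited trimmed mean signals were 172 on the 44 °C, 0 h array and 165 on the control array, inside a range of 101 to 211 over the 9 arrays. After scaling, 50.5% of probe sets on the 44 °C, 0 h array and 49.1% on the control array lay above a floor signal of 12.5, under which signals were raised to the floor. The ratio of 3′ to 5′ signal, a sign of RNA integrity, was 1.19 at 44 °C and 1.30 in control for ACTB, and 1.03 at 44 °C and 1.13 in control for GAPDH. ELANE, a granule protease gene of immature myeloid cells, was bright on both arrays, with a signal of 4369 at 44 °C and 3366 in control. LYZ, the gene of lysozyme, had 2816 at 44 °C and 2511 in control. Of the 20 measured monocyte markers, 16 were above the floor at 44 °C, 0 h and 17 in control, with summed signals of 18656 at 44 °C and 15575 in control. CD14, MPO and FCGR1A were under the floor on both arrays. The summed signals of the T cell markers were 66.6 at 44 °C and 69.3 in control, those of B cell markers 177 at 44 °C and 166 in control, those of epithelial and fibroblast markers 113 at 44 °C and 82.1 in control, and those of erythroid markers 168 at 44 °C and 144 in control. Above the floor were 2 of 12 T cell markers on each array, and of 10 B cell markers 5 at 44 °C and 4 in control. Of 13 epithelial and fibroblast markers 4 were above it at 44 °C and 1 in control. Of 6 erythroid markers 5 were above it at 44 °C and 3 in control. CD3E and EPCAM were under the floor on both arrays, while PAX5, a B cell marker, had 53.1 at 44 °C and 51.9 in control.

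At the end of heating at 44 °C, 204 of 19775 genes (1.03%) had fallen and 169 (0.855%) had risen. Scaling to the median in place of the trimmed mean gave 314 falls and 119 rises, and it set the median log2 fold of genes above the floor on both arrays at -0.09 in place of 0.03. Of the falls, 154 were above the floor on both arrays and 50 reached the floor at 44 °C, 0 h, so that their folds are bounds. Of the rises, 103 were above the floor on both arrays and 66 are bounds against a control value at the floor. Most of these genes were dim: the median control signal of the 154 falls was 86.3, and the median 44 °C, 0 h signal of the 103 rises was 52.5. Changes past 4-fold, with both arrays above the floor, numbered 6 falls and 1 rise. Among the 5100 genes with a mean signal of at least 200 on the 2 arrays, a limit set after the values were seen, 30 had fallen (0.588%) and 7 had risen (0.137%). Their median log2 fold was 0.04 and their 1st and 99th percentiles were -0.86 and 0.63. In these bulk samples, fewer cells of a type and less RNA per cell cannot be told apart.

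**Figure D1:**
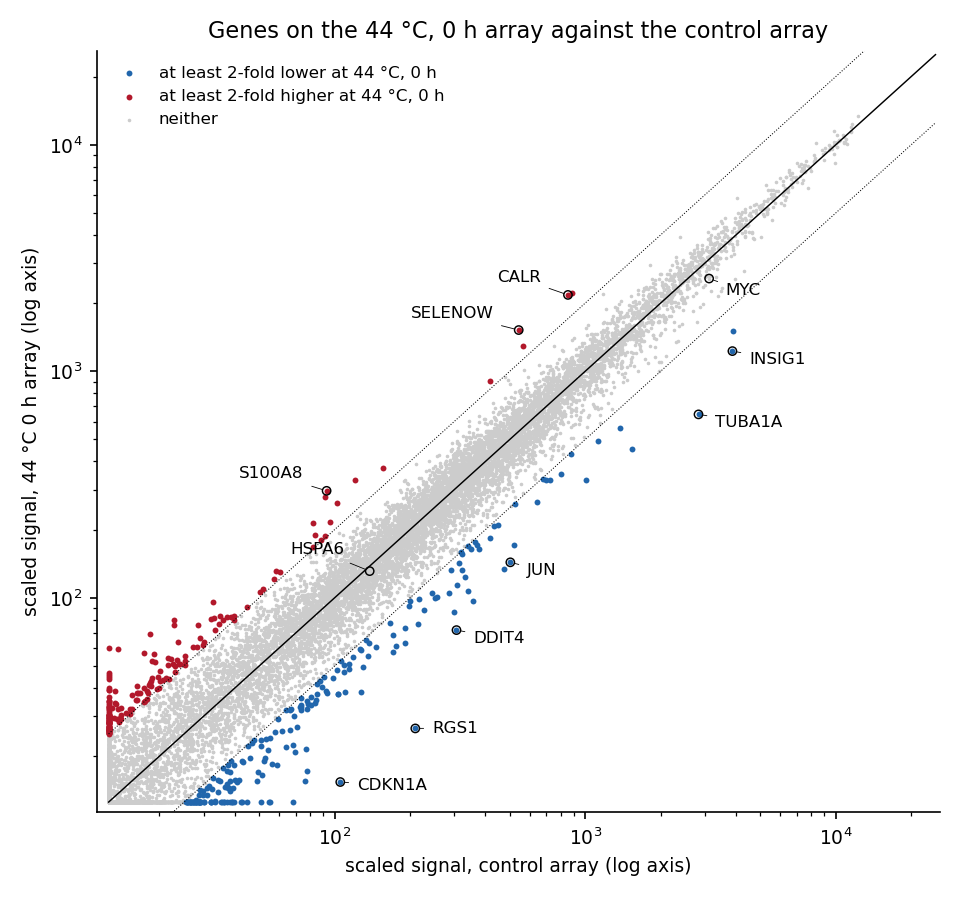
Each point is 1 of 19775 genes, with the scaled signal on the control array on the horizontal axis and on the 44 °C, 0 h array on the vertical axis, both log axes, and signals under the floor of 12.5 drawn at it. The solid line marks equal signals and the dotted lines mark 2-fold differences. The bright end holds few genes outside the dotted lines, with INSIG1 and TUBA1A below and CALR and SELENOW above.

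A gene's second brightest probe set was not used for the call and gave another view of the same 2 arrays. Of the 154 falls, 86 had such a probe set above the floor, and their median log2 fold on it was -0.64. On that probe set 46 of the 86 (53.5%) were lower by 0.5 or more and 5 were higher by 0.5 or more. Over all 6289 genes with a second probe set the median was 0.01, with 12.9% lower and 10.5% higher by that size. The 103 rises had 34 second probe sets with a median of 0.21, of which 11 (32.4%) were higher by 0.5 or more and 4 were lower by 0.5 or more. For the 30 bright falls, 22 had a second probe set, with a median of -0.92, 14 lower by 0.5 or more and 0 higher by 0.5 or more. Second probe sets share the RNA sample and the array with the first, so they speak to the probes and not to the cells.

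**Figure D2:**
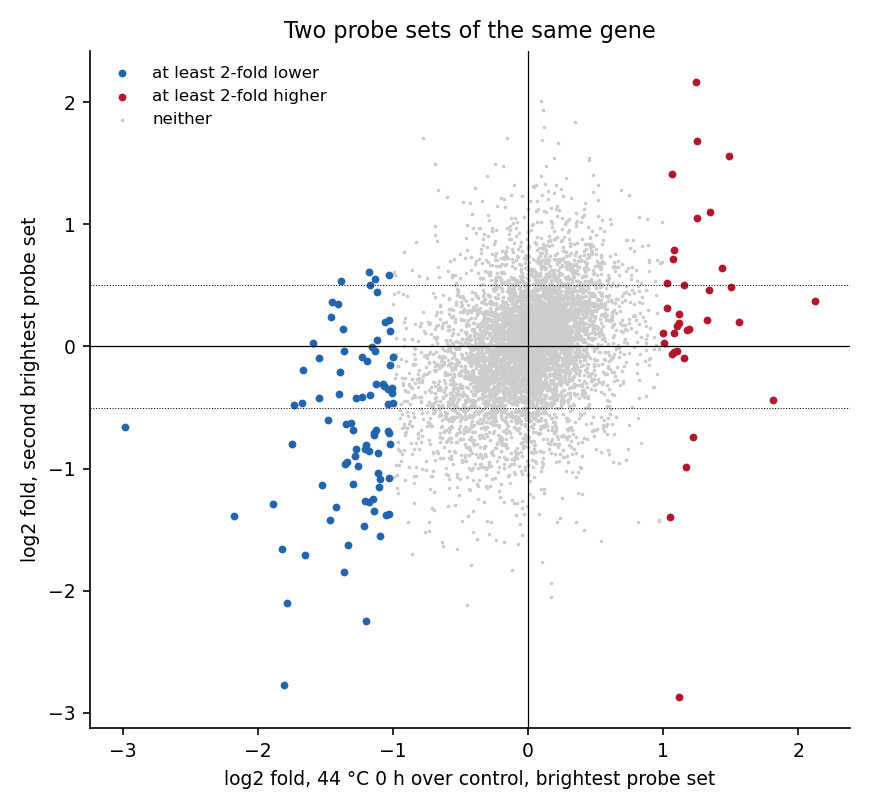
Each point is 1 gene with a second probe set above the floor, with the log2 fold (44 °C, 0 h over control) of its brightest probe set on the horizontal axis and of its second brightest on the vertical axis. Blue points are the 86 falls and red points the 34 rises with signals above the floor on both arrays, and grey points are genes that did not pass 2-fold. Most blue points lie below 0 (71 of 86), and 25 of the 34 red points lie above it.

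The other arrays place the levels of these genes among all 9. Of the 154 falls, the 44 °C, 0 h array was the lowest of all 9 for 77, and the control array was the highest of all 9 for 50. For 84 of them the 0 h arrays of both temperatures were the lowest pair. At 1 h after 44 °C, 140 of the 154 were within 2-fold of control. Of the 103 rises, the 44 °C, 0 h array was the highest of 9 for 64 and the control array was the lowest for 32, and 80 were within 2-fold of control at 1 h. Among the 30 bright falls, the 0 h arrays of both temperatures were the lowest pair for 25, and 29 were within 2-fold of control at 1 h. Ranks of genes picked for a low value on an array favour that array and carry no test. The same choice favours values nearer control on other arrays. The counts within 2-fold of control and of lowest pairs were not set beside the same counts over all genes. They describe these genes and are no test of recovery.

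RGS1, CDKN1A, DDIT4 and JUN mark the comparison. All have the 44 °C, 0 h array as their lowest of 9. RGS1, which shortens signalling by G protein coupled receptors, had a signal of 26.5 at 44 °C, 0 h, against 209.9 in control, a 7.92-fold fall (log2 fold -2.99). It was likewise low at 42 °C, 0 h, with 32.9. After 44 °C it was 196, 116 and 549 at 1, 3 and 6 h, and after 42 °C it was 47.9, 219 and 392. A second probe set of RGS1 gave a log2 fold of -0.66, and the median over its probe sets did not pass 2-fold. Here and below, that median counts probe sets at the floor on both arrays as unchanged. A gene can fall short for that reason alone.

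CDKN1A, the p21 inhibitor of cyclin dependent kinases, had 15.4 at 44 °C and 105 in control, a 6.85-fold fall (log2 fold -2.78). At 42 °C, 0 h its signal was 79.5, against 105 in control, and the log2 fold of 44 °C over 42 °C at 0 h was -2.37. After 44 °C it was 147, 261 and 246 at 1, 3 and 6 h, and after 42 °C 217, 319 and 159.7. The low value was on 1 array, just above the floor of 12.5, and on a gene with a single probe set.

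DDIT4, an inhibitor of the growth kinase mTORC1 that stress induces, had 72.0 at 44 °C and 307 in control, a 4.26-fold fall (log2 fold -2.09). It had 193 at 42 °C, 0 h, a log2 fold of -0.66 over control, and the log2 fold of 44 °C over 42 °C was -1.43. After 44 °C it was 380.4, 742 and 879 at 1, 3 and 6 h, and after 42 °C 591, 511 and 793. JUN, a subunit of the AP-1 transcription factor, had 143 at 44 °C and 503 in control, a 3.50-fold fall (log2 fold -1.81), and its 3 other probe sets gave log2 folds from -2.77 to -1.60. JUN was 214 at 42 °C, 0 h. After 44 °C it was 1123, 1510.5 and 959.7 at 1, 3 and 6 h, all above control, and after 42 °C 639.6, 591 and 478.

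**Figure D3:**
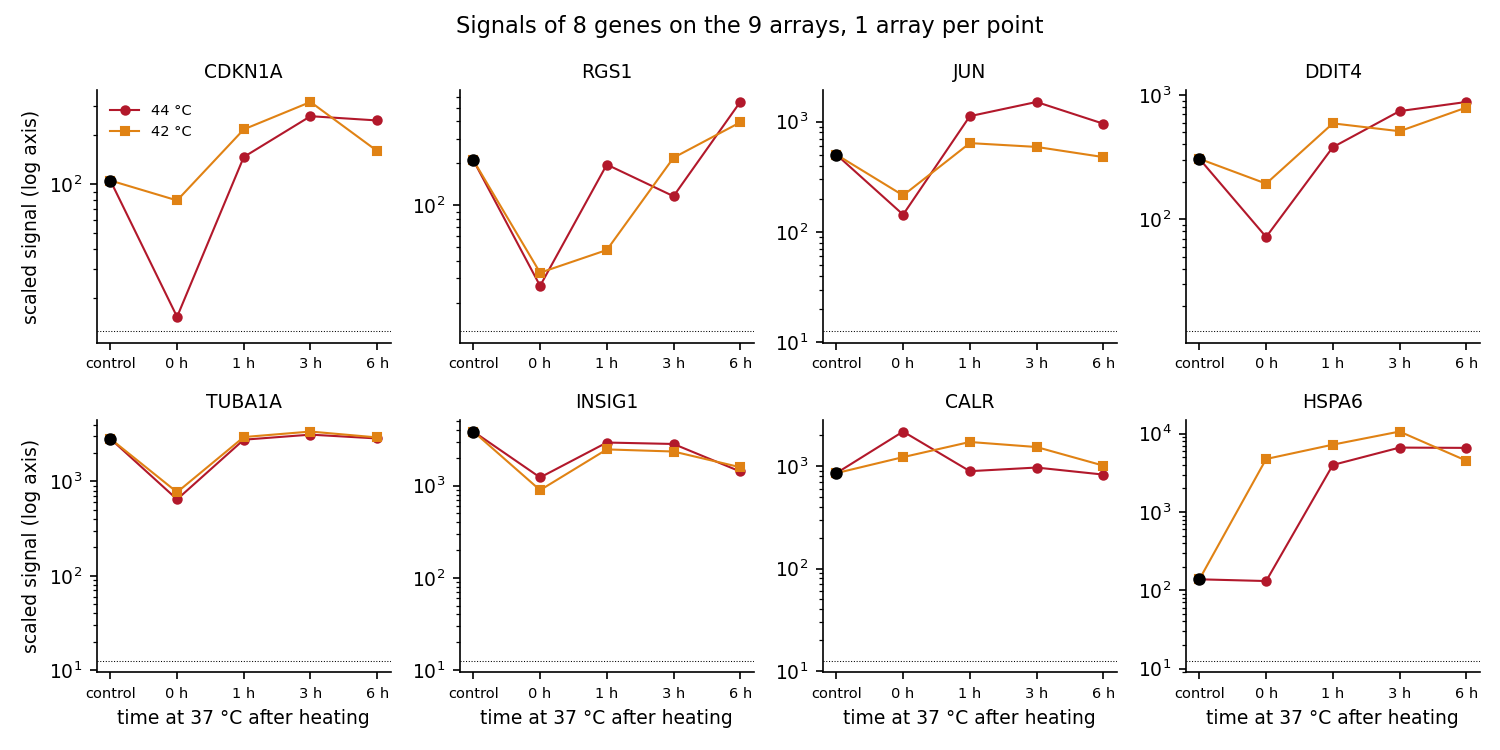
Scaled signals (vertical log axes) of 8 genes on the 9 arrays, from control through 0, 1, 3 and 6 h at 37 °C after heating, drawn at even spacing, with 44 °C as red circles, 42 °C as orange squares and the shared control in black. Each point is 1 array, so there are no error bars, and the dotted line is the floor of 12.5. At 0 h the 44 °C point is the lowest for RGS1, CDKN1A, DDIT4, JUN and TUBA1A, INSIG1 is low at both temperatures, CALR is highest at 44 °C, and HSPA6 is high at 42 °C and at the control level at 44 °C.

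Over the 9 arrays, the genes whose log2 signals ran most like each marker among 9913 genes above the floor on all arrays were AZI2 for CDKN1A (Pearson r = 0.98), TOB1 for RGS1 (r = 0.97), SERTAD1 for JUN (r = 0.98) and PSIP1 for DDIT4 (r = 0.99). These were picked as the highest of many, share the same 9 arrays, and are descriptions. TOB1, an antiproliferative protein that recruits the enzymes which shorten the poly(A) tails of messenger RNAs, itself fell to 59.7 at 44 °C, 0 h, against 126 in control.

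Upstream sequences are shown for 6 genes on which the results turn: JUN and DDIT4 among the markers, MSMO1 and SREBF2 for sterol synthesis, ASNS for the amino acid response, and HSPA6 as the heat shock gene that had not risen. Of the 114 genes named here, 92 had a promoter in the RefSeq table. Each is the 250 bases before the gene's start in build GRCh38.p14, 5′ to 3′ on the gene's own strand, with capitals on any match, on either strand, to GAANNTTC or TTCNNGAA (a pair of heat shock element units), TCACNCCA (a sterol regulatory element core), CCAAT, TGATGNAA (an ATF4 response core) and TGACNTCA (a CRE or AP-1 like site). Overlapping matches run together. The share of all 35116 promoters that hold each was 5.78%, 6.62%, 3.20%, 32.0%, 3.14% and 6.87% in that order. A match is a description of letters and shows no binding. All 6 genes shown hold matches, so they do not stand for the genes left out. Of those, INSIG1 and SREBF1 hold no sterol core and BAG3 holds no heat shock unit pair.
JUN: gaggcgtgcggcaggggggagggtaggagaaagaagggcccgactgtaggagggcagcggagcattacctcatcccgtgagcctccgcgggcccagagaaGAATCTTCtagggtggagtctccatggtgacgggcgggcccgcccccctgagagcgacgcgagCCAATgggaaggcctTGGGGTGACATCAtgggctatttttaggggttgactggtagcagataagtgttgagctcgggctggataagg
DDIT4: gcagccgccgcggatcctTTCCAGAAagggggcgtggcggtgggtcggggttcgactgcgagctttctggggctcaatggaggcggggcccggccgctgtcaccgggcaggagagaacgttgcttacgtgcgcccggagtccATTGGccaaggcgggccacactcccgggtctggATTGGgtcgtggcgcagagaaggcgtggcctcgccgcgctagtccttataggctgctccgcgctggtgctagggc
MSMO1: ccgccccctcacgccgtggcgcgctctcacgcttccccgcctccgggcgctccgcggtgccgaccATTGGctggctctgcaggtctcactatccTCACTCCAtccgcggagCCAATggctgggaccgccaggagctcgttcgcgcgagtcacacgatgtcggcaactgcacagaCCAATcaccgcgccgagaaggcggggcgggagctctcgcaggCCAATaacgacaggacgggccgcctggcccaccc
SREBF2: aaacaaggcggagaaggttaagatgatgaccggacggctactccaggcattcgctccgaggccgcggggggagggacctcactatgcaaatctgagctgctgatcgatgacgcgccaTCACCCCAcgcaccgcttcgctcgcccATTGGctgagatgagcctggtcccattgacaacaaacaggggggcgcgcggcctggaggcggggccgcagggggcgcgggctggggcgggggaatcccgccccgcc
ASNS: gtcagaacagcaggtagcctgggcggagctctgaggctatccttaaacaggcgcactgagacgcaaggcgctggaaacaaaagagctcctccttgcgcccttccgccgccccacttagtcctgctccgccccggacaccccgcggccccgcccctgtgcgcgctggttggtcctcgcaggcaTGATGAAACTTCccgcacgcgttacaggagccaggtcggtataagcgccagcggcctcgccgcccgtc
HSPA6: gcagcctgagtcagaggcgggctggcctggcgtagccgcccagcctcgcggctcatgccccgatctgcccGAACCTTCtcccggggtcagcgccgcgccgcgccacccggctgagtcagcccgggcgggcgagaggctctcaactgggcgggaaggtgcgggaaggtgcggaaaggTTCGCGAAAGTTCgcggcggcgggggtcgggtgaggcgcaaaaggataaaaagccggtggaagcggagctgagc
The windows lie at chr1:58784048-58784297 (minus strand) for JUN, chr10:72273674-72273923 (plus) for DDIT4, chr4:165327419-165327668 (plus) for MSMO1, chr22:41832855-41833104 (plus) for SREBF2, chr7:97872409-97872658 (minus) for ASNS and chr1:161524290-161524539 (plus) for HSPA6. HSPA6 holds 3 heat shock unit pairs, the overlapping ones starting 74 bases before the gene's start. Of 7 chaperone genes looked up, HSPA6 among them, 2 hold each form of the pair. JUN and DDIT4, which fell, hold 1 such pair each. JUN holds a CRE or AP-1 like site 67 bases before its start, run together with letters that match the sterol core. MSMO1 holds 4 CCAAT boxes and a sterol core, SREBF2 1 of each, and ASNS an ATF4 core 68 bases before its start that overlaps a heat shock unit pair. CDKN1A and RGS1 hold none of these letters in their windows.

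Of 22 sterol and lipid synthesis genes above the floor on either array, 8 had fallen and 0 had risen, with a median log2 fold of -0.80 and 19 below 0. Of 30 genes on this list, 7 had no probe set with a single symbol and were not measured. Over the 12318 genes above the floor on either array the median was 0.03, 46.4% were below 0, 1.66% had fallen and 1.37% had risen, and the lists that follow use the same base. Both regulators that switch these genes on were among the falls: SREBF1 had 63.2 at 44 °C and 191 in control (log2 fold -1.59), and SREBF2 had 77.0 at 44 °C and 215 in control (log2 fold -1.48). The 2 other probe sets of SREBF2 above the floor gave -0.83 and -0.60, and with the median over probe sets SREBF1 (-0.80) and SREBF2 (-0.83) did not pass 2-fold. The other probe set of SREBF1 was at the floor on both arrays, so its median is no second reading. INSIG1, whose protein holds those regulators back in the endoplasmic reticulum, had 1228 at 44 °C and 3868 in control. Of the enzymes, SCD, which makes monounsaturated fatty acids, had 1507 at 44 °C and 3884 in control, and its 3 other probe sets gave log2 folds from -1.85 to -1.69. MSMO1, a demethylase late in cholesterol synthesis, had 333 at 44 °C and 1010.2 in control, HMGCS1, which starts the mevalonate pathway, 164 at 44 °C and 378 in control, and MVD, a later mevalonate enzyme, 25.9 at 44 °C and 61.4 in control. STARD4, a carrier of cholesterol between membranes, had 132 at 44 °C and 322 in control.

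Members of the list that did not pass 2-fold included SQLE, with 1353 at 44 °C and 2298 in control, LSS with 728 at 44 °C and 1228 in control, IDI1 with 1099 at 44 °C and 1999.5 in control, and FASN, the fatty acid synthase, with 374.9 at 44 °C and 416.9 in control. The sterol core letters lay upstream of 2 of the 8 falls and CCAAT upstream of 7 of 8. NPC1, which exports cholesterol from lysosomes and was not on the list, had 456 at 44 °C and 1532 in control, a 3.36-fold fall, with -1.37 and -0.80 on other probe sets. Its partner NPC2 had 1053 at 44 °C and 1257 in control, a log2 fold of -0.26. After 44 °C, NPC1 stayed at 791, 660.4 and 664 at 1, 3 and 6 h, and control was the highest of its 9 arrays. SREBF1 and INSIG1 also had control as their highest array.

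Of 32 genes of the ATF4 response, which supplies amino acids and restrains synthesis under stress, 5 had fallen and 0 had risen, with a median log2 fold of -0.33 and 28 below 0, where 1.66% of all genes on this base had fallen and 1.37% had risen. Beside DDIT4 and ATF3, the falls were 3 genes of amino acid uptake and synthesis. DDIT4 is a marker chosen with earlier results known, so its fall was known before the count. SLC7A11, the cystine carrier, had 134 at 44 °C and 474 in control, with -1.66 and -0.78 on other probe sets. CTH, which makes cysteine, had 87.0 at 44 °C and 300.1 in control (log2 fold -1.79), with -2.10 on its other probe set. ASNS, which makes asparagine, had 114 at 44 °C and 309 in control (log2 fold -1.44), and the median over its probe sets was -0.72. The other probe set of ASNS was at the floor on both arrays. At 42 °C, 0 h these genes were low too, with 108 for SLC7A11, 72.6 for CTH and 93.6 for ASNS, and by 1 h after 44 °C they were at 383, 367 and 288. ATF3, a transcription factor of the same response, had 25.6 at 44 °C and 57.9 in control, but its other probe set gave a log2 fold of 0.61. PSAT1, a serine synthesis enzyme, had 1007 at 44 °C and 1975 in control, a log2 fold of -0.97 that did not pass, with -1.05 on its other probe set. ATF4 itself had 1772 at 44 °C and 1969.5 in control. DDIT3, the CHOP factor, had 92.9 at 44 °C and 66.8 in control.

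Of 27 immediate early genes, 6 had fallen and 1 had risen, with a median of -0.47 and 23 below 0, against 1.66% of all genes fallen and 1.37% risen. The falls include JUN, a marker chosen with earlier results known, so its fall was known before the count. They also include ATF3, given above, whose other probe set gave a log2 fold of 0.61. JUND, another AP-1 subunit, had 560.3 at 44 °C and 1379 in control, and other probe sets gave -1.35 and -1.12. BHLHE40, a repressor tied to the circadian clock, had 429.6 at 44 °C and 876 in control, with -1.08 on the other probe set. EGR3, an early growth response factor, had 32.3 at 44 °C and 66.8 in control. FOSB reached the floor, with 11.3 at 44 °C and 38.8 in control. NR4A1, an orphan nuclear receptor, was the rise, with 30.3 at 44 °C, 0 h and a control value of 6.73 that was under the floor, and it did not pass with the median over its probe sets. FOS, the partner of JUN, had 62.0 at 44 °C and 35.5 in control, and EGR1 had 301 at 44 °C and 194 in control, neither past 2-fold.

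Of 31 feedback inhibitors of growth factor, cytokine and Notch signalling, 4 had fallen and 1 had risen, with a median of -0.39 and 27 below 0, against 1.66% of all genes fallen and 1.37% risen. Of the 4 falls, 2 are bounds at the floor. SKIL, which restrains TGF-beta signalling, had 96.6 at 44 °C and 358 in control, a 3.71-fold fall, with -1.29 on another probe set. TOB1 was a fall as given above, with -0.30 on its other probe set. With the median over each gene's probe sets 0 of the list had fallen. SKIL, SOCS3 and HES1 had other probe sets at the floor on both arrays, which count as unchanged in that median. SOCS3 and HES1 were under the floor at 44 °C, with 8.76 for SOCS3 and 10.6 for HES1, and had 27.1 for SOCS3 and 26.6 for HES1 in control. HES4 was the rise, with 34.2 at 44 °C and 13.2 in control. DUSP1, the phosphatase of stress kinases, had 44.7 at 44 °C and 59.7 in control, and DUSP5, an ERK phosphatase, had 106 at 44 °C and 178 in control.

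In other lists of short lived or regulatory genes few members passed. RGS1 was the single fall among 19 RGS and receptor genes and CDKN1A the single fall among 15 cell cycle inhibitors and p53 targets, with list medians of -0.25 and -0.23. Both are markers chosen with earlier results known, so these 2 counts say nothing more about the lists. Over all genes on this base 1.66% had fallen and 1.37% had risen, so 0 or 1 member in lists of this size is near that share. Other members of these 2 lists did not pass 2-fold. RGS16 had 89.2 at 44 °C and 136 in control, CDKN1B, the p27 inhibitor, had 833 at 44 °C and 898 in control, and MDM2, which degrades p53, had 114 at 44 °C and 135 in control. BCL2A1, an antiapoptotic BCL2 relative, was a fall with 493 at 44 °C and 1124 in control, while MCL1 had 1049.8 at 44 °C and 1474 in control. Of 26 proapoptotic genes 0 had risen and 0 had fallen, with a median of 0.03. PMAIP1, the BH3 protein NOXA, had 326 at 44 °C and 496 in control. The stress sensors GADD45A and GADD45B had 49.4 for GADD45A and 219 for GADD45B at 44 °C, against 54.5 and 234 in control. HMOX1, which degrades heme, had 94.7 at 44 °C and 114 in control, and KLF2, a zinc finger factor, had 17.6 at 44 °C and 20.9 in control.

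In further lists few members passed, most of them dim, where 1.66% of all genes on this base had fallen and 1.37% had risen. MXD3, which competes with MYC for its partner, had 14.04 at 44 °C and 38.2 in control, among 24 genes of MYC and ribosome assembly. IFI6, an interferon induced gene, had 15.5 at 44 °C and 38.1 in control among 16 interferon genes. CXCL2, a chemokine, was a rise with 39.9 at 44 °C and 19.9 in control among 19 inflammatory genes, where BCL2A1 was the fall. TOB1 was the fall among 28 genes of mRNA decay, and SLC7A11 among 19 NRF2 and metallothionein genes. GAS5, a host of small nucleolar RNAs, had 22.9 at 44 °C and 46.6 in control and was 1 of 2 falls among 5 nuclear noncoding genes. Another 11 of the 16 genes on that list had no probe set with a single symbol. Among cell type markers, the dim bounds were ITGAX, an integrin of myeloid cells, with 1.59 at 44 °C and 26.5 in control, KRT8, a keratin, with 26.8 at 44 °C and 9.52 in control, HBB, the beta globin, with 27.5 at 44 °C and 10.4 in control, and SLC4A1, the anion exchanger of red cells, with 28.1 at 44 °C and 12.4 in control. CXCL2, TOB1, ITGAX, HBB and SLC4A1 did not pass with the median over probe sets. Of these, CXCL2, ITGAX and SLC4A1 had no other probe set above the floor.

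**Figure D4:**
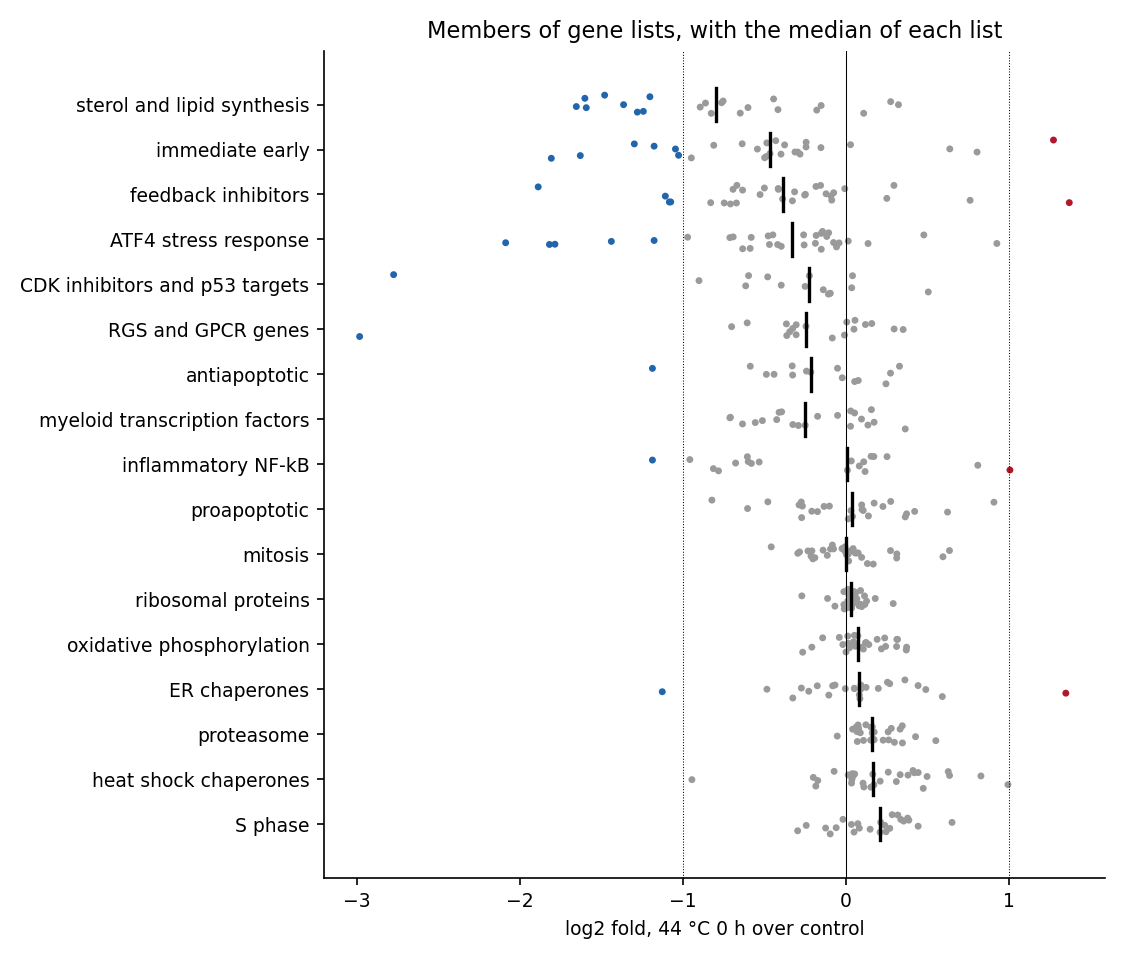
Each point is a gene of the list named at the left, with its log2 fold at 44 °C, 0 h over control on the horizontal axis, and each thick bar is the list's median. Genes past 2-fold are blue where lower and red where higher, and vertical scatter within a list has no meaning. The sterol list has its median at -0.80, while the medians of proteasome, ribosomal protein and mitosis genes lie at 0.16, 0.03 and -0.0025.

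Lists of the basic machinery held no gene past 2-fold. With 1.66% of all genes on this base fallen and 1.37% risen, that is near the share in lists of this size. Among 36 ribosomal protein genes the log2 folds ran from -0.27 to 0.29, among 29 oxidative phosphorylation genes from -0.27 to 0.37 and among 27 proteasome genes from -0.05 to 0.55. The proteasome list had a median of 0.16 with 26 of 27 above 0, S phase genes had a median of 0.21, and mitosis genes -0.0025. Medians this near 0 depend on the scaling, whose shift is given above. Among 7 subunits of the chaperonin TRiC the median was 0.23, among 24 splicing regulators 0.05, among 29 transcription elongation genes 0.03 and among 21 myeloid transcription factors -0.25. ACTB had 13442.5 at 44 °C and 12321 in control, and GAPDH 8383 at 44 °C and 8155 in control.

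TUBA1A, an alpha tubulin, was among the 15 largest falls. It had 645 at 44 °C and 2833 in control, a 4.39-fold fall (log2 fold -2.13), with 768 at 42 °C, 0 h and 2766, 3129 and 2851 at 1, 3 and 6 h after 44 °C. The low values were those of both 0 h arrays. It rests on 1 probe set. Other tubulin genes, looked up after this value was seen, did not follow: TUBA1B had 10151 at 44 °C and 10811 in control, TUBA1C 6203 at 44 °C and 6476 in control, and TUBB, a beta tubulin, 7202 at 44 °C and 6338 in control. Alpha tubulin genes are alike in sequence and their probe sets may share signal.

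Other large falls with both arrays above the floor were mostly dim. COQ8B, a kinase-like protein of coenzyme Q synthesis, had 15.6 at 44 °C and 75.9 in control. PTPN14, a tyrosine phosphatase, had 17.2 at 44 °C and 77.9 in control, with -1.39 and -0.80 on other probe sets. INSR, the insulin receptor, had 38.2 at 44 °C and 127 in control, but other probe sets gave -0.51 to -0.17. SNORA21, a small nucleolar RNA, had 21.4 at 44 °C and 76.6 in control, and CASTOR2 had 20.8 at 44 °C and 69.6 in control. DDX60L, a helicase-like gene, had 18.3 at 44 °C and 58.8 in control. Among bounds, C5AR1, the complement C5a receptor, had 2.17 at 44 °C and 54.8 in control, MAML2, a Notch coactivator, 6.52 at 44 °C and 55.1 in control, and ZKSCAN2, a zinc finger gene, 10.3 at 44 °C and 68.5 in control. HECW2, a ubiquitin ligase, had 1.97 at 44 °C and 42.2 in control, and ZC3H12C, a zinc finger gene of a family of RNA nucleases, 12.3 at 44 °C and 39.7 in control. With the median over probe sets INSR, DDX60L, HECW2 and ZC3H12C did not pass 2-fold. Of these, only INSR had other probe sets above the floor.

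Among the 30 bright falls, apart from genes given above, CCN3, a matricellular protein, had 123 at 44 °C and 331 in control, with -1.32 on the other probe set. TSC22D3, the glucocorticoid induced leucine zipper, had 156 at 44 °C and 323 in control, with -1.38 on the other probe set, and SGK1, a kinase that glucocorticoids also induce, had 184 at 44 °C and 418 in control. RNF145, a ubiquitin ligase of sterol control, had 209 at 44 °C and 449.9 in control, with -1.04 on the other probe set. HHEX, a homeobox factor of blood cells, had 333 at 44 °C and 678 in control, with -0.80 on the other probe set. ETV5, an ETS factor downstream of ERK, had 265 at 44 °C and 641 in control, but its 4 other probe sets gave -0.44 to -0.33. MAP3K5, the stress kinase ASK1, had 170.0 at 44 °C and 340.4 in control, but its other probe set gave -0.09. ANTXR2, a receptor of anthrax toxin, had 354 at 44 °C and 799.5 in control, with other probe sets from -1.27 to 0.50. LATS2, a Hippo pathway kinase, had 159 at 44 °C and 319 in control, but other probe sets ran from -0.38 to 0.68. These examples were chosen after their values were seen.

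CALR, the calcium binding chaperone calreticulin of the endoplasmic reticulum, was 1 of the 7 bright rises. It had 2173 at 44 °C and 854 in control, a 2.55-fold rise, with 1.10 and 1.42 on its other probe sets. It had 1223 at 42 °C, 0 h and was at 892, 968 and 826 at 1, 3 and 6 h after 44 °C, and the 44 °C, 0 h array was the highest of 9. HSPA5, the main chaperone of the same compartment, had 3920.02 at 44 °C and 3288 in control, and the 25 genes of the list had a median of 0.08. DNAJC3, a cochaperone there, was the list's fall, with 331.5 at 44 °C and 725 in control, and other probe sets from -1.54 to -0.30. SELENOW, a small selenoprotein, had 1521 at 44 °C and 543 in control, a 2.80-fold rise, with 1.56 on its other probe set. At 42 °C, 0 h it had 1483, and all 8 heated arrays were above control.

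KAT2A, the histone acetyltransferase GCN5, had 331 at 44 °C and 121 in control. MUTYH, a DNA repair glycosylase, had 373 at 44 °C and 156 in control. RSRP1 had 906 at 44 °C and 417 in control on its brightest probe set but a log2 fold of -2.87 on the other, so its direction depends on the probe set. ANXA2P2, with 1298 at 44 °C and 565 in control, and NACA4P, with 2215 at 44 °C and 889 in control, are named as pseudogenes, and their probe sets may read the parent genes. S100A8, a calcium binding protein of myeloid cells, had 297 at 44 °C, 310.5 at 42 °C and 92.9 in control, and the median over its probe sets was 0.84. The other probe set of S100A8 was at the floor on both arrays. The level of S100A8 was 81.1, 92.3 and 112 at 1, 3 and 6 h after 44 °C. PRTN3, a granule protease, had 945 at 44 °C, 1023 at 42 °C and 481 in control, and PLAC8, a myeloid gene, 2187 at 44 °C, 2272 at 42 °C and 1179 in control, neither past 2-fold. PRTN3, PLAC8, MUTYH, RSRP1 and the pseudogenes were chosen after their values were seen.

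Dimmer rises above the floor on both arrays included CD38, an enzyme that consumes NAD, with 75.9 at 44 °C and 22.9 in control, AP1G2, an adaptor of vesicle transport, with 278 at 44 °C and 91.6 in control, and FLT1, a receptor of VEGF, with 96.1 at 44 °C and 32.6 in control. ERVK13-1 had 59.4 at 44 °C and 13.6 in control, MROH6 69.2 at 44 °C and 18.3 in control, and ZNF71 80.0 at 44 °C and 22.8 in control. The other probe sets of ZNF71 gave -0.44 and 0.02, so neither was near 2-fold, and that of ERVK13-1 gave 0.37 and that of FLT1 0.20. KMT5C, a histone H4 methyltransferase, had 57.2 at 44 °C and 17.3 in control, BEST1, a chloride channel, 52.7 at 44 °C and 18.6 in control, and PRDM1, the repressor BLIMP1, 51.9 at 44 °C and 19.2 in control, with 0.49 on the other probe set of BEST1 and 0.36 and 0.64 on those of PRDM1. With the median over probe sets, ZNF71, ERVK13-1, FLT1, AP1G2, KMT5C, BEST1, PRDM1, NCALD and POLN of these rises did not pass 2-fold. Of these, AP1G2, KMT5C, NCALD and POLN had no other probe set above the floor. ADM5 had 56.6 at 44 °C and 19.1 in control, SPACDR 39.0 at 44 °C and 13.3 in control, and LRRC69 63.8 at 44 °C and 23.7 in control. Rises against a control at the floor were led by MICOS10P1, with 59.8 at 44 °C and 8.37 in control, and NCALD, a neuronal calcium sensor, with 46.7 at 44 °C and 10.6 in control. POLN, a DNA polymerase, had 44.9 at 44 °C and 8.91 in control, HP, the haptoglobin gene, 40.1 at 44 °C and 1.88 in control, and POLR2J2, a gene of an RNA polymerase II subunit family, 39.3 at 44 °C and 12.5 in control.

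Of 30 heat shock chaperone genes above the floor, 0 had risen and 0 had fallen at 44 °C, 0 h, with a median of 0.17 and 25 above 0. Over all genes on this base 1.37% had risen and 1.66% had fallen, so 0 of 30 is near that share. Of 37 listed chaperone genes, 6 had no probe set with a single symbol and were not measured. The HSP70 genes HSPA1A, HSPA1B and HSPA8 are not among the 30. HSPA6, the strictly inducible HSP70, had 131 at 44 °C, 4751 at 42 °C and 138 in control. BAG3, an HSP70 cofactor, had 156 at 44 °C, 1590.5 at 42 °C and 176 in control. DNAJB1, the main HSP40, had 1008 at 44 °C and 742 in control, and DNAJA4, of the same family, 40.8 at 44 °C and 20.5 in control, just short of 2-fold. HSPH1, a HSP110 chaperone, had 1812 at 44 °C and 1464 in control, HSP90AA1 had 7321 at 44 °C and 6588 in control, and SERPINH1, the collagen chaperone, was under the floor on both arrays with 0.887 at 44 °C and 0.576 in control. HSF1 itself had 191 at 44 °C and 176 in control. By 1 h after 44 °C, HSPA6 was at 3988, BAG3 at 869 and DNAJB1 at 4168.

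The array closest in treatment to 44 °C, 0 h was that of 42 °C, 0 h, and setting 44 °C over 42 °C leaves the control out of the fold. By that measure 149 genes were at least 2-fold lower at 44 °C (0.753%) and 315 at least 2-fold higher (1.59%). Of the 30 chaperone genes, 8 were at least 2-fold lower at 44 °C than at 42 °C and 0 at least 2-fold higher, with a list median of -0.46 and 27 below 0. Over the 12318 genes of the same base 1.04% were lower and 2.56% higher by that size, with a median of 0.04. That base, above the floor at 44 °C or in control, drops genes above the floor at 42 °C alone. It held 128 of the 149 lower genes and all 315 higher ones, so it understates the lower share. SERPINH1 is 1 gene it drops, with 0.887 at 44 °C and 176 at 42 °C. Among the 30, DNAJB4, a HSP40, was higher at 44 °C, with 84.2 against 53.7 at 42 °C. So was BAG1, an HSP70 cofactor, with 387 at 44 °C and 261 at 42 °C. HSPA6 differed by a log2 fold of -5.18, BAG3 by -3.35, DNAJA4 by -2.66 and DNAJB1 by -2.61. Some genes outside the chaperone list were likewise lower at 44 °C than at 42 °C. IER5, an early response gene, had 471 at 44 °C, 3830.04 at 42 °C and 524 in control, DUSP1 had 44.7 at 44 °C, 283 at 42 °C and 59.7 in control, and RGS2, a relative of RGS1, 63.9 at 44 °C, 413 at 42 °C and 57.3 in control. TXNIP, an inhibitor of thioredoxin, had 174 at 44 °C, 797 at 42 °C and 312 in control, and OTUD1, a deubiquitinase, had 22.4 at 44 °C, 122 at 42 °C and 68.0 in control. OTUD1 and TREM1, a receptor that amplifies inflammation in myeloid cells, had fallen at 44 °C over control, OTUD1 not with the median over its probe sets. The other probe sets of OTUD1 were at the floor on both arrays. TREM1 had 16.5 at 44 °C, 55.1 at 42 °C and 51.5 in control. RGS2, TXNIP, OTUD1 and TREM1 were named after their values were seen.

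Other genes were less lowered at 44 °C than at 42 °C. MYC, a transcription factor that drives growth, had 2567 at 44 °C, 614 at 42 °C and 3123 in control, a log2 fold of 2.06 for 44 °C over 42 °C. After 44 °C it was at 1914, 787 and 859 at 1, 3 and 6 h. IER2, an immediate early gene, had 1289 at 44 °C, 472 at 42 °C and 1822 in control, CDKN1B 833 at 44 °C, 292 at 42 °C and 898 in control, and ID2, an inhibitor of helix-loop-helix factors, 1089.5 at 44 °C, 495 at 42 °C and 1782 in control. SREBF1 had 63.2 at 44 °C, 4.68 at 42 °C and 191 in control, the 42 °C value being under the floor. The sterol list had medians of -0.80 at 44 °C and -0.88 at 42 °C over the control they share, and 44 °C over 42 °C gave 0.08. With 1 array each, none of these temperature differences could be tested.

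**Figure D5:**
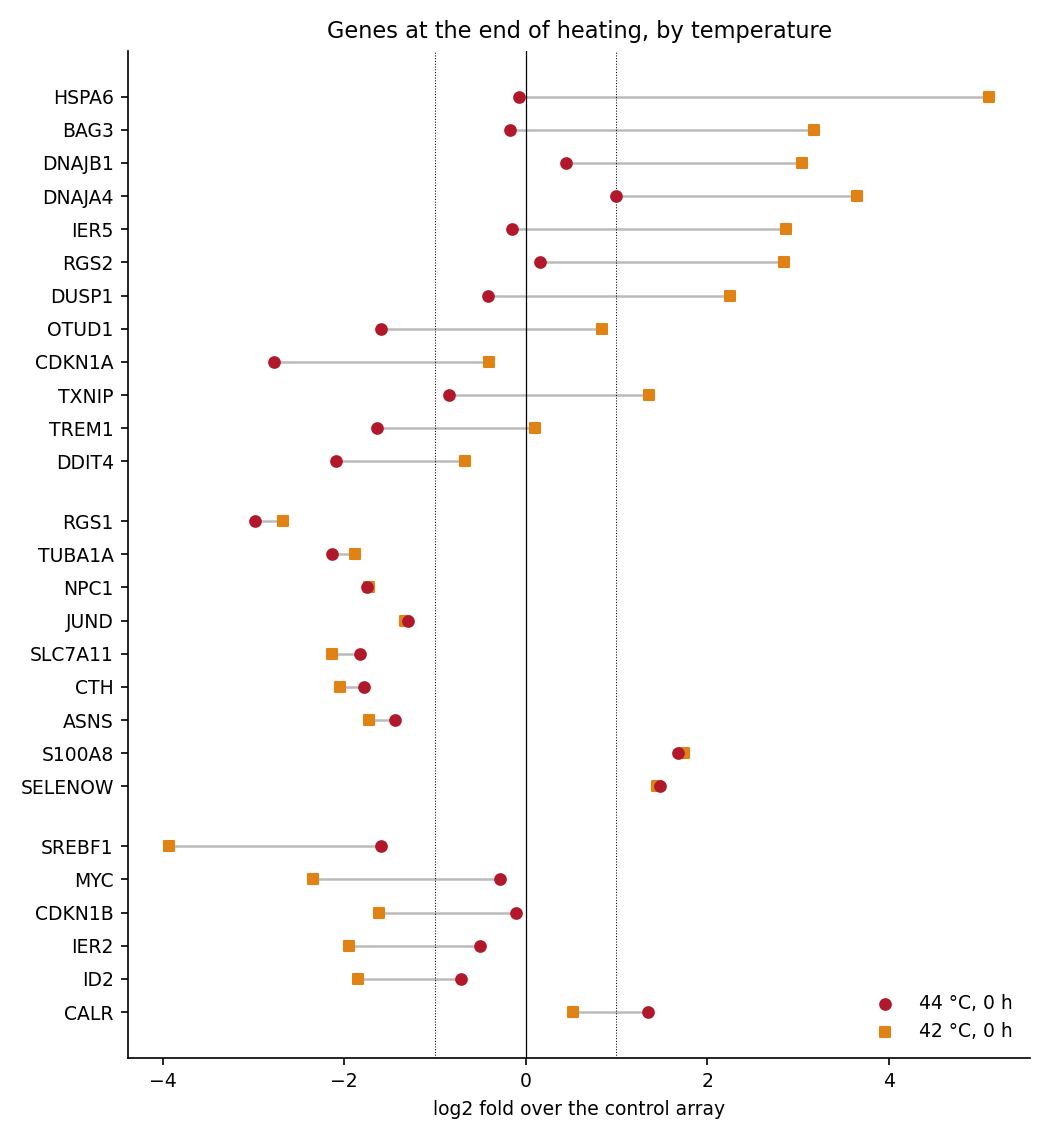
For 27 genes, the log2 fold over the shared control array is drawn on the horizontal axis for 44 °C, 0 h as a red circle and for 42 °C, 0 h as an orange square, joined by a line. The genes, chosen after their values were seen, are those lower at 44 °C (top), near each other (middle) and higher at 44 °C (bottom), and dotted lines mark 2-fold. HSPA6 has the longest line, with -0.07 at 44 °C and 5.10 at 42 °C.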

How the data were processed

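Per the labels' protocols, total RNA of U937 cells was extracted on RNeasy columns, treated with DNase, copied to biotin labelled cRNA from a one-cycle reaction and hybridised to Affymetrix arrays, 1 for each of 9 conditions. The deposited values are linear intensity signals of 54675 probe sets, which the authors made with MAS5 per the submitters' processing notes. The scaling target is not given in the sources used here, and no scanner files were used. A factor for each array (0.474 to 0.989) brought its mean over 54613 probe sets, without 62 controls and after trimming 2% from both tails, to 100. The floor was the median scaled signal, 12.5, and lower signals took that value before the log2 step. MAS5 signals near the floor are noisy, so dim genes pass 2-fold most easily.

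Probe sets with 1 symbol in the platform annotation (41097) were named, 41043 of them matched RefSeq by gene number, and the brightest probe set on average over the 9 arrays stood for each of 19775 genes. The 1801 with several symbols, and those with none, got no name. Names were the 4 markers, the 15 largest falls and rises above the floor, the 5 largest bounds each way, up to 4 members of each of 32 lists past 2-fold, 28 genes whatever their values, and 26 genes added after their values were seen, beside examples from lists and bright genes. Largest changes left out genes with another probe set that went the other way by 0.5 or more, as well as clone labels, histone and immunoglobulin genes. The markers, lists and comparison were chosen with earlier results of these data known. With 1 array per condition no test was run, and the number of arrays limits the precision. The size rule was run on simulated data with small noise, in which only bright genes were changed, each by clearly more than 2-fold. Changes in dim genes or near 2-fold were not simulated, so that run says nothing about them. Alternatives in scaling, floor, probe set choice and size are given at the end. Python 3.11.15, numpy 2.4.6, pandas 2.3.3, scipy 1.17.1 and matplotlib 3.10.9 were used.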

Additional observations from a re-analysis of the deposited data

Results flagged for a closer look

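RNA45SN5, the precursor of ribosomal RNA, differed in direction between the temperatures at 0 h. Its log2 fold over control was -1.029 at 44 °C and 1.109 at 42 °C, from signals of 41.8 at 44 °C, 0 h and 184 at 42 °C, 0 h, and 85.3 in control. A second probe set gave -0.71 at 44 °C, 0 h over control. At 1, 3 and 6 h after 44 °C its signal was 297, 820.2 and 573. Its gene has many near-identical copies, which the probe set cannot separate. With 1 array per condition the difference was not tested.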

How the results depend on the processing

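The counts moved most with the floor. Against 204 falls and 169 rises as reported, a floor at the 25th percentile (2.91) gave 1384 and 1630, a floor at the 67th (40.0) gave 83 and 30, log2(signal + 16) with no floor 99 and 64, the median over a gene's probe sets 102 and 84, and a 3-fold rule 35 and 15. Genes above the floor on both arrays gave 154 and 103, and those with a mean signal of at least 200, an alternative chosen after seeing the data, 30 and 7. Quantile normalisation gave 215 and 140. Scaling to the median gave 314 and 119, and moved the median of genes above the floor on both arrays from 0.03 to -0.09, so the split of falls against rises depends on scaling. In the lists, the floor at the 25th percentile gave 2 falls and 2 rises among cell cycle inhibitors, 1 rise among RGS genes, 1 fall among proapoptotic genes, and 1 fall and 2 rises among chaperones, where median scaling also gave 1 fall. The floor at the 67th percentile left 3 falls and 0 rises among immediate early genes and 2 falls and 0 rises among feedback inhibitors. With log2(signal + 16) the feedback inhibitors had 1 fall and 0 rises. The median over probe sets left 0 falls among RGS genes, 0 rises among immediate early genes and 0 falls among feedback inhibitors. Probe sets at the floor on both arrays count as unchanged in that median. It can therefore miss a call whatever the brightest probe set shows. The sterol and ATF4 counts stayed within 1.5 times under quantile normalisation, median scaling, both other floors, log2(signal + 16) and the median over probe sets, but a 3-fold rule left 3 sterol falls of 8 and 3 ATF4 falls of 5. Of 74 named genes past 2-fold, 74 stayed past it with the lower floor, 33 with the higher one, 56 with log2(signal + 16), 43 with the median over probe sets, and 73 each with quantile normalisation and median scaling. RSRP1 reversed to -0.876 with the median over probe sets. No replicate could be left out. No paired analysis was possible because each condition had 1 array.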

Other observations

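Probe sets without a name of their own also differed between the arrays. Of 11721 probe sets with no symbol, 3207 were above the floor on both arrays, and of these 189 were at least 2-fold higher at 44 °C, 0 h and 66 at least 2-fold lower. Of 1801 probe sets with several symbols, 1051 were above the floor on both arrays, and 17 were higher and 18 lower. For comparison, 10810 named genes were above the floor on both arrays at their brightest probe set. Of these, 103 were higher and 154 lower by that size. The split towards higher signals in the first group was not tested and these probe sets were not used in any count of genes.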
